A study of Homo sapiens with 6 samples.

Results

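CTCF and SMC1 CUT&Tag peaks were examined at 53 genes of the cell cycle and DNA replication, among 19675 protein-coding genes whose 5′ end was known. The members are a list of genes named for their function, and no measured value was a condition of membership. This list and the other gene lists used below were chosen with earlier results of these data known. All 53 had a position and a strand on GRCh38. In CUT&Tag an antibody directs a transposase to the chromatin bound by its target, and the DNA released there is sequenced. The libraries came from IMR90, human lung fibroblasts, all with I79 in their titles, and there was 1 library for each of 2 antibodies in each of 3 conditions. Control cells carried the p number 16 for SMC1 and 21 for CTCF. Cells treated with ICM (inflachromene, an inhibitor that binds HMGB proteins) carried p 16 for both antibodies, with 6 days of treatment given for CTCF and no number of days for SMC1. Senescent cells carried p 34 for both, and the labels name no treatment for them.

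Genes of this kind are switched on in waves as cells commit to division. E2F proteins activate the replication genes at the entry into S phase, and complexes with MYBL2 and FOXM1 activate the mitotic genes later. When cells leave the cycle, repressor complexes that contain RB family proteins such as RBL1 (p107) shut both groups down. CTCF is an insulator protein that binds a long DNA motif. SMC1 is a core subunit of cohesin, the ring-shaped complex that extrudes chromatin loops and that is also found at active promoters.

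Each list holds the top 1% of regions of 1 library, and a gene counted as listed where a peak overlapped its outermost 5′ end extended by 1 kb on each side. A gene that is not listed may still be bound below the threshold of that list. The SMC1 lists held 14883 (control), 17809 (ICM) and 12927 (senescent) peaks, and the CTCF lists 4673, 6728 and 8577. The files do not hold the number of reads behind each list, for which the study's methods state only a minimum, and no scale common to the lists could be established, so peaks are described by their percentile rank in their own list. Without replicates no difference between conditions could be tested. Marker genes were read as well, and no cell type was called from them. In control, 7 of 11 fibroblast marker genes had an SMC1 peak at the 5′ end, against 2 of 10 marker genes of other lung cells. The numbers were 7 and 0 in the ICM list and 6 and 2 in the senescent list. Of the protein-coding genes outside the 53, 33.2%, 29.1% and 24.2% were listed. Of 31 housekeeping genes, 23 (74.2%) were listed in control, so such a peak was not particular to fibroblast markers. CTCF was listed for 2 (control), 5 (ICM) and 1 (senescent) of the fibroblast markers and for no marker of other lung cells.

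Promoter sequences are shown here for 5 members that were listed for SMC1 in control. They do not stand for all patterns of listing. The largest class, the 26 members (49.1%) in no SMC1 list, is not among them. CCNB1 was listed for SMC1 in control alone, CCNA2 in control and ICM, CDC20 in all 3 SMC1 lists, and MCM10 and PCNA in all lists of both antibodies. The sequences are from RefSeq (GRCh38.p14), run from 250 bases before to 50 bases after the annotated start, and are read in the direction of transcription. CCNB1 lies at chr5:69166900-69167199 (plus strand), CCNA2 at chr4:121823834-121824133 (minus), CDC20 at chr1:43358731-43359030 (plus), MCM10 at chr10:13161308-13161607 (plus) and PCNA at chr20:5126573-5126872 (minus). Capitals mark exact matches, on either strand, to the E2F-type sites TTTCCCGC, TTTCGCGC, TTTGCCGC and TTTGGCGC, the cell cycle homology region (CHR) TTTGAA, the CCAAT box, and the CTCF core, searched as AGGGGGC and also, with a different middle base, as AGGTGGC. The 5 promoters follow, each on a line of its own.
CCNB1: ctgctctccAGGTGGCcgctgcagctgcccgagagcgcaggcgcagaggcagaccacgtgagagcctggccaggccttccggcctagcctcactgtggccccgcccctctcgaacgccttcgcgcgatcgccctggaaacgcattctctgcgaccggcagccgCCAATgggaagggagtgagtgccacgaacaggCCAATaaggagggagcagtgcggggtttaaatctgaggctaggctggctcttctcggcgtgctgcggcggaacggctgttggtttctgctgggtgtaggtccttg
CCNA2: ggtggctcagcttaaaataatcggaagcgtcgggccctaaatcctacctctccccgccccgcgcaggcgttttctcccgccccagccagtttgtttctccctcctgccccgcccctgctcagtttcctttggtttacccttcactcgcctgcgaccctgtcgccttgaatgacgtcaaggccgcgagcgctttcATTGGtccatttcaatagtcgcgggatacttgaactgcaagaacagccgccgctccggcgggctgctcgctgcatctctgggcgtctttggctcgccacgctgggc
CDC20: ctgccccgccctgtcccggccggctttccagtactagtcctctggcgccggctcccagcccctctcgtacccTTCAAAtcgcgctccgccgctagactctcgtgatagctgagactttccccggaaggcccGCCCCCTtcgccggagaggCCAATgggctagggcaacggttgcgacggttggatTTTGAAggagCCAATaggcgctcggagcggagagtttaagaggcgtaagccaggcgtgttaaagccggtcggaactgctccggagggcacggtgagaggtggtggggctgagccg
MCM10: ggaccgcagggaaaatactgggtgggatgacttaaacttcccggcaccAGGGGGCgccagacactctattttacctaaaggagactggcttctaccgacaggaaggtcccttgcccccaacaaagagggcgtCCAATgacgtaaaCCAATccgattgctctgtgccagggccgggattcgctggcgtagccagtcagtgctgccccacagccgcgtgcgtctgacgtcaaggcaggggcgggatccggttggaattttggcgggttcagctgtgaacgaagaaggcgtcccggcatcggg
PCNA: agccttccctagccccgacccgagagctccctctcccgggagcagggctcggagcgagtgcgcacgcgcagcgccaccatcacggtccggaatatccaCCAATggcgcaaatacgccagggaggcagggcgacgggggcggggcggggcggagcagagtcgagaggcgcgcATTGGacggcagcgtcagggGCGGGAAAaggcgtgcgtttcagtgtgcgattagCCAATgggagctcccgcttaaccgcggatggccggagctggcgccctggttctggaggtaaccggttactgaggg

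The first question was how many of these promoters carried listed cohesin in dividing cells and how many still did after ICM treatment and in senescence. In control, 25 of 53 members (47.2%) had an SMC1 peak at the 5′ end, while 33.2% of the other 19622 protein-coding genes did. In ICM-treated cells 19 members (35.8%) were listed, against 29.1% of the others. In senescent cells 13 members (24.5%) were listed, against 24.2% of the others. At the shares of the other genes, 53 genes would hold 17.6, 15.4 and 12.8 listed ones, so the members stood above that number in control and next to it in senescent cells.

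**Figure D1:**
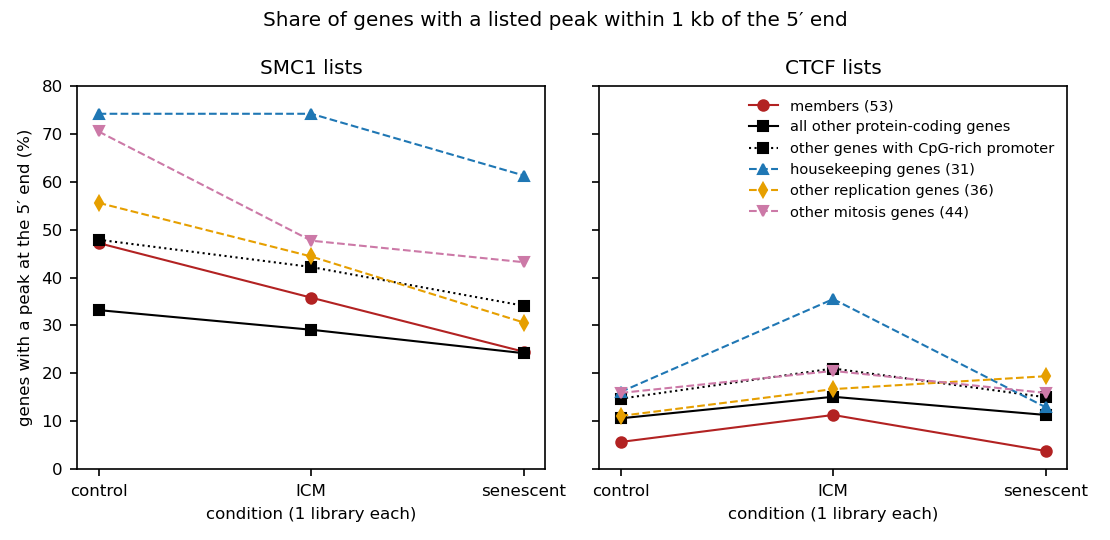
Share of genes with a peak at the 5′ end (y axis, percent) in the 3 SMC1 lists (left) and the 3 CTCF lists (right), with 1 library per point and no error bars. The members go from 47.2% in control to 24.5% in senescent cells for SMC1 and stay below all other protein-coding genes in each CTCF list, and the dotted line gives other genes with a CpG-rich promoter.

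The excess in control depended on which genes the members were set against. Promoters of this class are rich in CpG, and 41 of the 45 members with a promoter sequence (91.1%) met the usual limits for it (GC above 50% and observed to expected CpG above 0.6), against 62.9% of other genes. Among the other genes with a CpG-rich promoter, 47.9% were listed for SMC1 in control, 42.2% with ICM and 34.1% in senescent cells. Beside these genes the members' share differed by -0.72 points (control), -6.39 points (ICM) and -9.61 points (senescent). The senescent list thus held fewer members than the control list by a wider margin than for either set of other genes, while the members' place above or below the others depended on the set. Whether CpG content accounts for the excess was not tested.

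For the members the order of the lists was the same at equal length, though the ICM and senescent counts were then nearly equal. When every SMC1 list was cut to its 12927 peaks of highest total signal, 24 of 53 members (45.3%) were listed in control. With ICM it was 14 (26.4%) and in senescent cells 13 (24.5%). The others stood at 30.5%, 23.8% and 24.2%, so for them the ICM list no longer held more than the senescent list. Only 2 members had an SMC1 5′ end peak in ICM-treated cells without one in control, RRM2 and MCM4, and no member had one in senescent cells without one in control. For the other genes without a control peak, 4.52% had one in the ICM list and 4.25% in the senescent list.

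**Figure D2:**
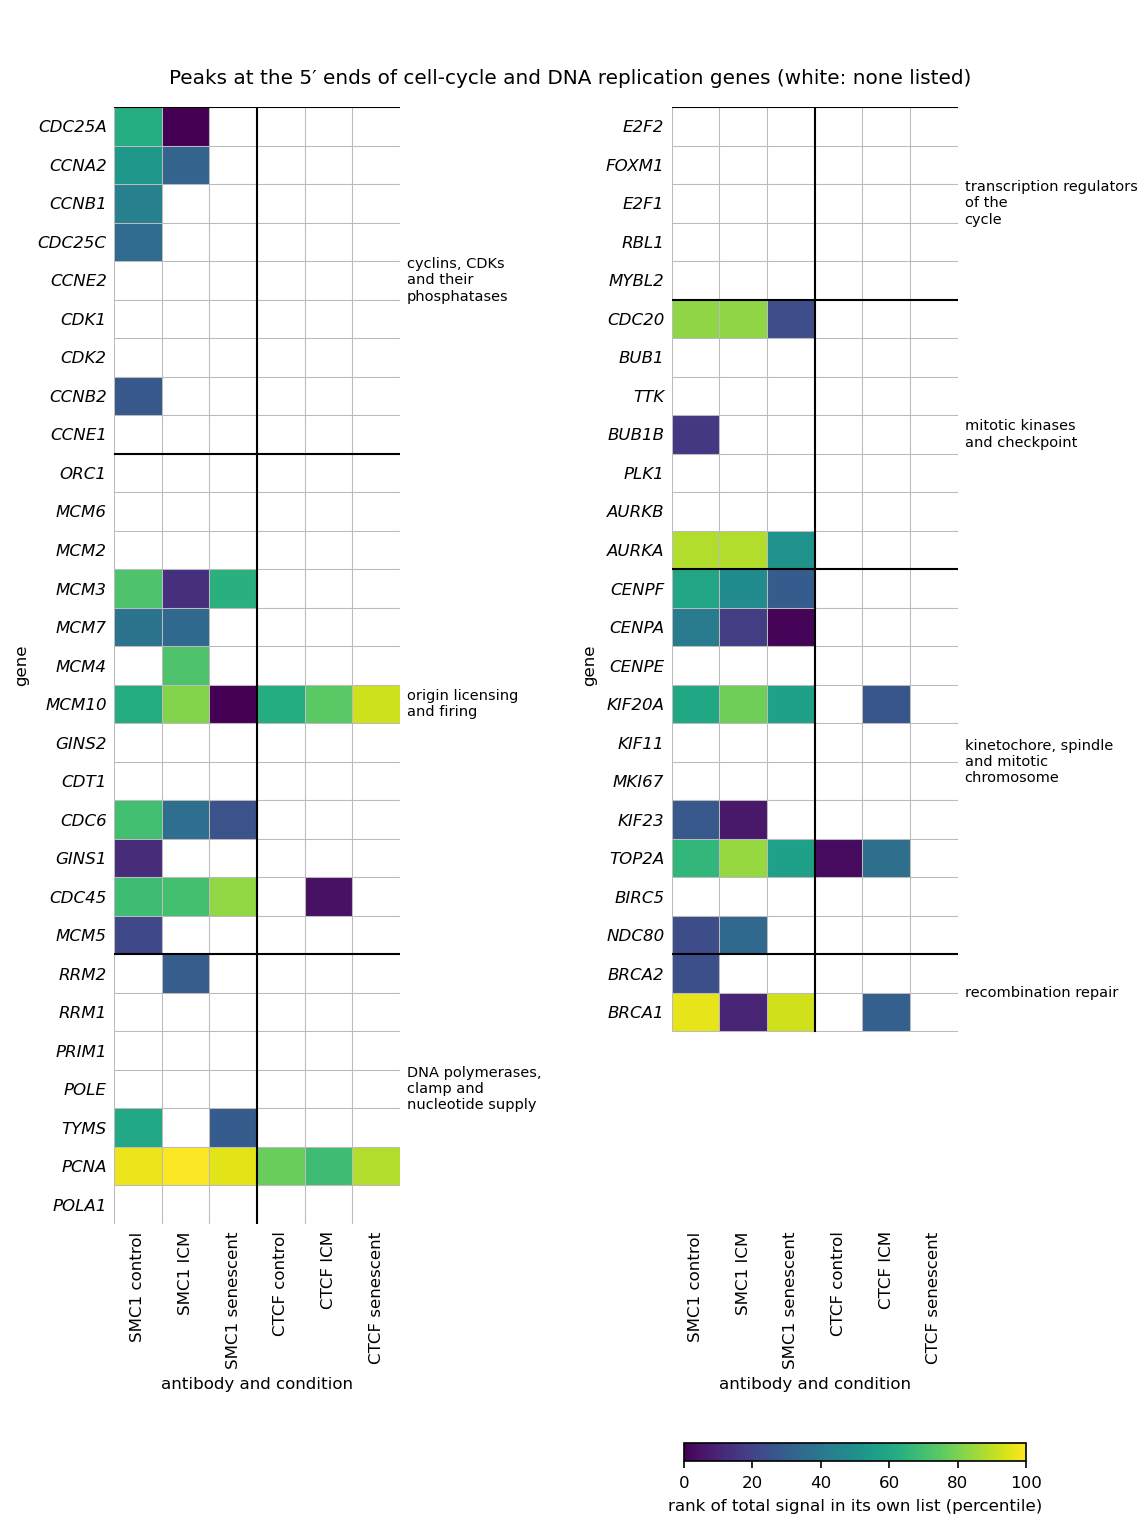
Every member (rows, grouped by role) in the 6 lists (columns). Coloured cells have a peak at the 5′ end, with the colour giving the percentile rank of its total signal in its own list, and white cells have none. The cyclin and CDK group has 5 coloured cells for SMC1 in control and 0 in senescent cells, and the group of transcription regulators has none in any list.

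The cyclins, cyclin-dependent kinases and their activating phosphatases were listed less in the ICM and senescent lists than in control. Of these 9 genes, 5 were listed for SMC1 in control (55.6%), 2 with ICM (22.2%) and 0 in senescent cells. Of the other protein-coding genes 33.2%, 29.1% and 24.2% were listed, and the same shares stand beside each role below. The roles hold few genes and were not tested. CCNB1 encodes cyclin B1, the partner of CDK1 at the entry into mitosis. Its control SMC1 peak spanned 69166745 to 69167539 on chromosome 5, ranked at the 43.1 percentile by total signal, had a width of 795 bp and a rank of 30 by highest signal, and had its summit (the midpoint of its highest stretch) at -157 bp, where negative values lie before the 5′ end. The ICM and senescent lists held no peak there. CCNB2, which encodes the other main mitotic cyclin B, was likewise listed in control alone (chromosome 15, 59105000 to 59105742, 743 bp), at the 27.1 percentile by total and 25.3 by highest signal.

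CDC25C encodes the phosphatase that activates CDK1. At its outermost 5′ end it was also listed in control alone (chromosome 5, 138337510 to 138338629, 1120 bp, 34.7 percentile by total and 3.13 by highest signal), in a window that also holds the 5′ end of FAM53C. RefSeq gives CDC25C further starts inside the gene, at 138331877 and 138331804, and SMC1 peaks covered these in all 3 lists, ranking at the 84.3 percentile by total signal in control, 60.9 with ICM and 69.2 in senescent cells. With every RefSeq start counted, CDC25C therefore moved to the genes listed in all conditions. CCNA2 encodes cyclin A2, which acts in S phase and G2. Its SMC1 peak ranked at the 53.3 percentile in control (chromosome 4, 121823078 to 121824231, 1154 bp) and at 31.7 in ICM-treated cells (121823190 to 121824252, 1063 bp). By highest signal it ranked at 44.6 and 10.9. CDC25A encodes a phosphatase that acts on CDK2 at the G1/S transition. Its peak ranked at the 61.8 percentile in control (chromosome 3, 48187941 to 48188921, 981 bp), and in ICM-treated cells at 0.0309, the very edge of the list (702 bp). By highest signal the ranks were 66.4 and 10.9. Neither gene was listed in senescent cells. CCNE1 and CCNE2, the E-type cyclins, and the kinases CDK1 and CDK2 had no SMC1 peak at the 5′ end in any list.

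Genes of origin licensing and firing prepare replication origins by loading and activating the MCM helicase. Of 13 such genes, 7 were listed for SMC1 in control (53.8%), 6 with ICM (46.2%) and 4 in senescent cells (30.8%). The 4 present in every list were MCM3, MCM10, CDC6 and CDC45. MCM7, a helicase subunit, was listed in control (37.9 percentile, chromosome 7, 100101342 to 100102213, 872 bp) and in ICM-treated cells (33.4 percentile, 529 bp), with ranks of 63.5 and 58.9 by highest signal, and its window also holds the 5′ end of AP4M1. MCM5 and GINS1, a subunit of the helicase activator GINS, were listed in control alone. GINS1 held the lowest-ranking control peak of all members, at the 12.2 percentile by total signal (chromosome 20, 25407537 to 25408127, 591 bp, 20.5 by highest signal). MCM4 was listed in ICM-treated cells alone, at the 72.1 percentile by total but 22.3 by highest signal (chromosome 8, 47960655 to 47961832, 1178 bp), in a window shared with the 5′ end of PRKDC. MCM2 and MCM6, the loading factor CDT1 and the GINS subunit GINS2 were not listed for SMC1 in any condition.

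ORC1, the largest subunit of the origin recognition complex, had no peak at its outermost 5′ end. The start in the RefSeq promoter table lies 5080 bp inside that end, at 52404423 on chromosome 1, and an SMC1 peak covered it in every list. Those peaks ranked at the 84.5 percentile by total signal in control, 73.5 with ICM and 11.1 in senescent cells. Counting every RefSeq start added only ORC1 to the listed members in control, and the shares of members then were 49.1%, 39.6% and 28.3% in control, ICM-treated and senescent cells.

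The genes for DNA polymerases, the sliding clamp and nucleotide supply had few listed peaks but the strongest one. Of 7 genes, 2 (28.6%) were listed in each condition, near the shares of the other protein-coding genes (33.2%, 29.1% and 24.2%). PCNA encodes the clamp that holds DNA polymerases on their template. Its SMC1 peak ranked at the 97.2 percentile by total signal in control (chromosome 20, 5126154 to 5127368, 1215 bp), 99.4 with ICM and 95.6 in senescent cells, and at the 99, 99.6 and 99.2 percentiles by highest signal. The PCNA window also holds the 5′ end of CDS2, so the peak cannot be given to either gene alone. TYMS, which encodes thymidylate synthase, was listed in control (60.1 percentile, chromosome 18, 657111 to 658502, 1392 bp) and in senescent cells (28.8 percentile, 1178 bp), with ranks of 11.7 and 20.4 by highest signal, but not in ICM-treated cells. The TYMS window also holds the 5′ end of TYMSOS. RRM2 encodes the regulatory subunit of ribonucleotide reductase, and its single SMC1 peak at the 5′ end was in the ICM list (29.3 percentile, chromosome 2, 10123491 to 10124465, 975 bp, 22.3 by highest signal). That peak began 923 bp inside the gene, and in control the nearest SMC1 peak was 1673 bp away, beyond the 1 kb limit. POLA1, POLE, PRIM1 and RRM1 were not listed for SMC1 in any condition.

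None of the 5 transcription regulators of the cycle had an SMC1 or CTCF peak at the 5′ end in any list. These are the activators E2F1 and E2F2, the mitotic regulators MYBL2 and FOXM1, and RBL1, the repressor described above. The absence from a list covers only the regions above its threshold. Most other protein-coding genes were not listed either, since in control 33.2% of them had SMC1 and 10.6% had CTCF at the 5′ end.

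The members were also read by the phase in which they act. Of 23 genes that act in G2 and mitosis, 13 (56.5%) were listed for SMC1 in control, 9 (39.1%) with ICM and 6 (26.1%) in senescent cells. Of 30 genes that act in G1 and S phase, the numbers were 12 (40%), 10 (33.3%) and 7 (23.3%). The other protein-coding genes stood at 33.2%, 29.1% and 24.2%. Among the 7 mitotic kinases and checkpoint genes, AURKA and CDC20 were listed in every condition. AURKA, a kinase of spindle poles, ranked at the 88.4 percentile by total signal in control (chromosome 20, 56391965 to 56392907, 943 bp), 88.5 with ICM and 50.9 in senescent cells, and at 94.1, 89.2 and 40.1 by highest signal. Its window also holds the 5′ end of CSTF1. CDC20, an activator of the anaphase-promoting complex, ranked at 83, 83 and 23.5 (control peak on chromosome 1, 43357985 to 43359399). BUB1B, a spindle checkpoint kinase, was listed in control alone at the 16.1 percentile, and BUB1, TTK, PLK1 and AURKB were not listed in any condition.

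Kinetochore, spindle and mitotic chromosome genes were the role in which 6 of 10 (60%) were listed both in control and in ICM-treated cells. The other protein-coding genes stood at 33.2% and 29.1% in these lists and at 24.2% in the senescent list. In senescent cells 4 of the 10 genes (40%) remained, namely CENPA, CENPF, KIF20A and TOP2A. CENPA encodes the histone variant of centromeres. Among members listed in all conditions its control peak had the lowest rank, at the 40.8 percentile by total signal (chromosome 2, 26785448 to 26786254, 807 bp), followed by 17.9 with ICM and 1.11 in senescent cells. By highest signal its ranks went the other way, at 30, 41.5 and 65.4. NDC80, which links kinetochores to microtubules and shares its window with the 5′ end of METTL4, was listed in control (23.3 percentile, chromosome 18, 2570798 to 2571827, 1030 bp) and in ICM-treated cells (33.3 percentile, 1123 bp), at ranks of 3.13 and 6.66 by highest signal. KIF23, a kinesin of cytokinesis, was also listed in these conditions, but its ICM peak had its summit 645 bp inside the gene while the control summit lay at -29 bp. MKI67, the gene of the proliferation marker Ki-67, was not listed for SMC1 in any condition, nor were KIF11, CENPE and BIRC5.

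The recombination genes BRCA1 and BRCA2 both had an SMC1 peak in control. That of BRCA2 (chromosome 13, 32315244 to 32316404, 24 percentile by total and 5.47 by highest signal) was in the control list alone. It began 167 bp inside the gene with its summit at 843 bp, in a window that also holds the 5′ end of ZAR1L. BRCA1 was listed in all conditions at its outermost 5′ end (chromosome 17, 43169374 to 43172452, 3079 bp, in control), at the 96.4, 9.92 and 92.6 percentiles by total signal in control, ICM-treated and senescent cells, and at 66.4, 28.6 and 58.3 by highest signal. That end lies beside the 5′ end of NBR1. RefSeq gives BRCA1 another start, at 43125364, and the SMC1 peak covering that start (43124951 to 43125638, 7.76 percentile) was in the control list alone.

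**Figure D3:**
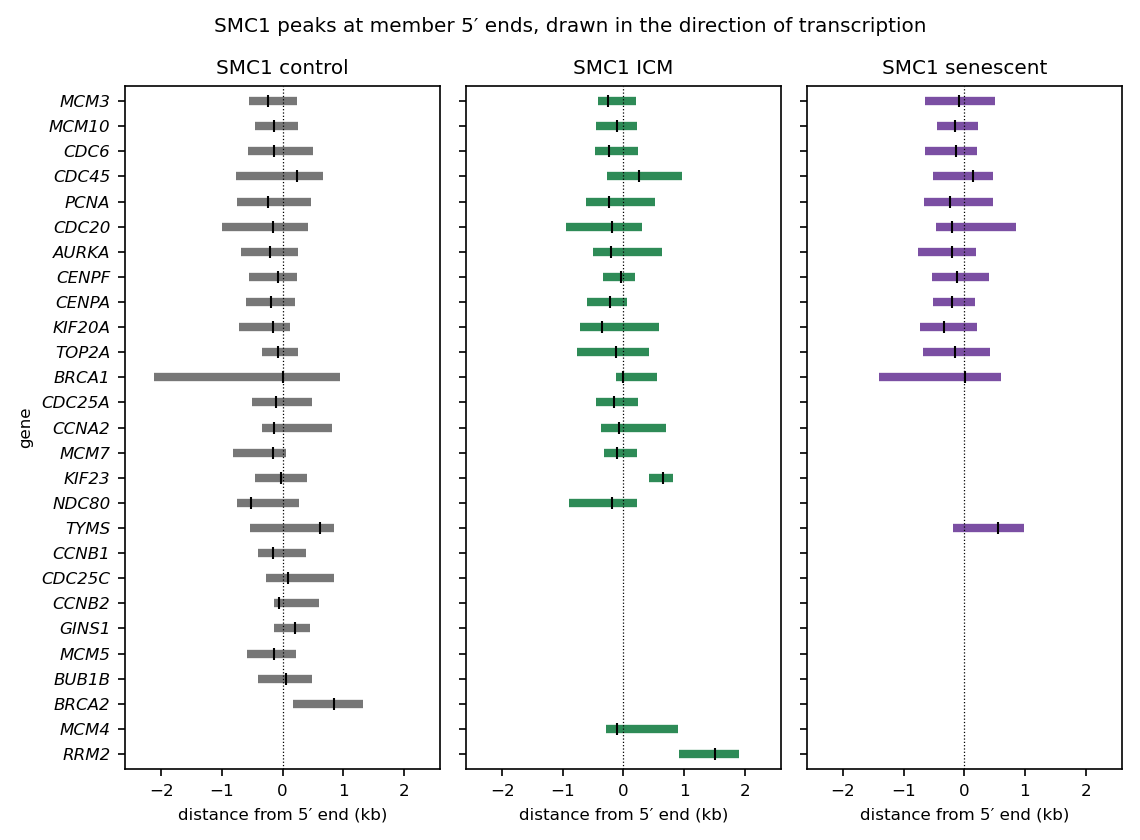
SMC1 peaks (bars) and their summits (black ticks) at the 27 members with a 5′ end peak in at least 1 list, with distance from the 5′ end in kb along the x axis, negative before the gene. Genes are ordered by the lists that hold them, from all 3 lists at the top to ICM alone at the bottom, and most summits sit just before the 5′ end.

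The peaks lay at similar distances from the 5′ end in each condition. The median SMC1 summit lay at -135 bp (control), -121 bp (ICM) and -147 bp (senescent). For other genes the medians were -78, -79 and -73 bp. Members had their summit inside the gene in 7 of 25 cases in control, 3 of 19 with ICM and 3 of 13 in senescent cells. The median rank of the members' peaks by total signal was 58.8 (control), 35.9 (ICM) and 50.9 (senescent), against 62.5, 62.6 and 61.7 for other genes. By highest signal it was 48.9, 53.5 and 49.7, against 52.9, 47.6 and 49.7, so the low ICM value was seen by total signal only. The median peak width was 892, 975 and 990 bp, against 1025, 888 and 1123 bp for other genes. A second gene had its 5′ end within the 1 kb window of 19 of 53 members (35.8%), against 26.6% of the other genes. Such windows were found for 7 of the 13 members listed in control and senescent cells, for 5 of the 12 listed in control and not in senescent cells, and for 7 of the 28 not listed in control.

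Next, only genes with a control SMC1 peak were followed, so that the higher share of members in control did not enter. Of the 25 members with such a peak, 17 (68%) also had one in the ICM list, against 78.7% of the other genes. In the senescent list 13 of 25 (52%) had one, against 64.4% of the others. At the shares of the other genes this would come to 19.7 and 16.1 of 25 genes, so the gaps amount to about 3 genes each. An ICM library and a senescent library give 1 value each, and no test could be made of these gaps. When the other genes were limited to those with a CpG-rich promoter, the differences were -11.9 points for ICM and -12.2 points for senescent cells. The value for ICM turned to 3.54 points when lists were cut to equal length by highest signal, a setting that gave -8.07 points for senescent cells. It was -21.6 points at equal length by total signal and -25.9 points with peaks above the median total signal of each list, so its size depended strongly on the setting.

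**Figure D4:**
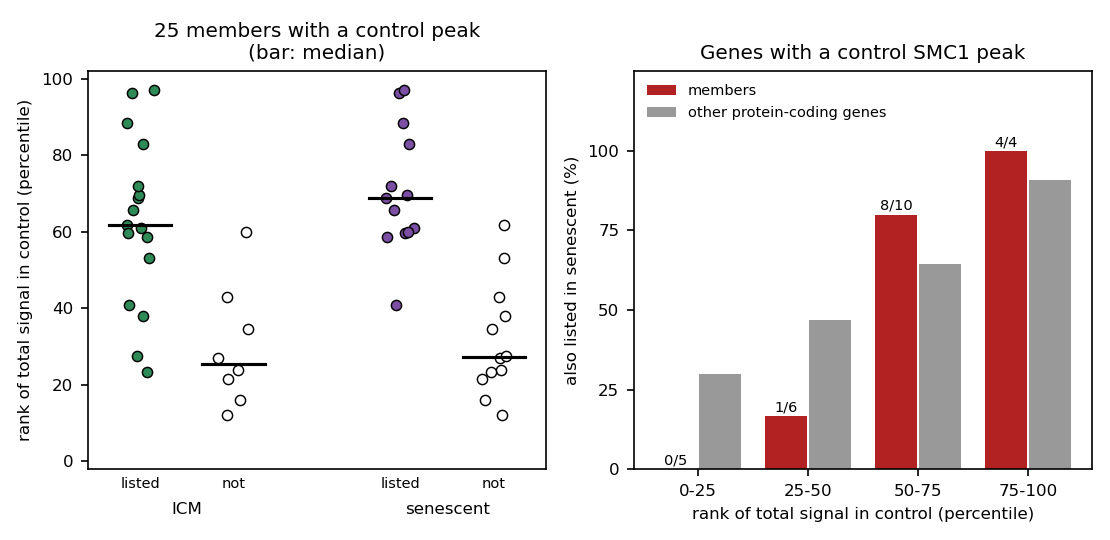
Left, percentile rank in control (y axis) of the 25 members with a control SMC1 peak, split by whether the ICM or the senescent list also held one (filled) or not (open), with bars at the medians of 61.8 and 25.6 for ICM and 68.9 and 27.3 for senescent cells. Right, share of genes also listed in senescent cells in 4 bands of control rank, with the number of members over each bar.

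Members that were missing from the senescent list had ranked lower in control. The 13 still listed had a median control percentile of 68.9 by total signal (range 40.8 to 97.2), and the 12 no longer listed had 27.3 (range 12.2 to 61.8). For other genes these medians were 74.9 and 38.8. Below the 50 percentile of control ranks, 1 of 11 members was also listed in senescent cells, against 39.4% of the other genes in that range. Above it, the count was 12 of 14 members, against 79.5% of the others. With ranks by highest signal the lower range gave 4 of 13 members against 48.3%, and the upper range 9 of 12 against 79.1%. By total signal the members' shortfall beside other genes thus lay in the weaker control peaks. By highest signal the shortfall in the lower range was smaller, and it did not follow rank from band to band. There 1 of 7 members was kept in the 0 to 25 band, against 41.4% of the others, and 3 of 6 in the 25 to 50 band, against 54.8%. In the 50 to 75 band it was 1 of 4, against 68.2%, and in the 75 to 100 band 8 of 8, against 87.6%. Taken as a whole, the upper range gave members' shares near those of the other genes on both measures.

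The 12 members in all 3 SMC1 lists also ranked lower in senescent cells. Of these, 11 had a lower percentile by total signal in senescent cells than in control, with a median difference of -19.7 points (range -60.8 to 14.6). For the 3773 other genes in all 3 lists the median was -5.65 points, and 64.3% of them were lower. By highest signal 8 of the 12 members were lower, with a median of -25.2 points, against 63.4% of the others with a median of -6.49 points. MCM10 and CDC20, chosen here after their values were seen, had the widest gaps, of -60.8 and -59.5 points. CDC45, which joins the active helicase, was the exception with a higher rank in senescent cells (68.9 in control and 83.5 in senescent cells). Between control and ICM-treated cells 6 of 12 members were lower and the median difference was 0.0333 points (range -86.5 to 20.2), with BRCA1 at the lower end.

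**Figure D5:**
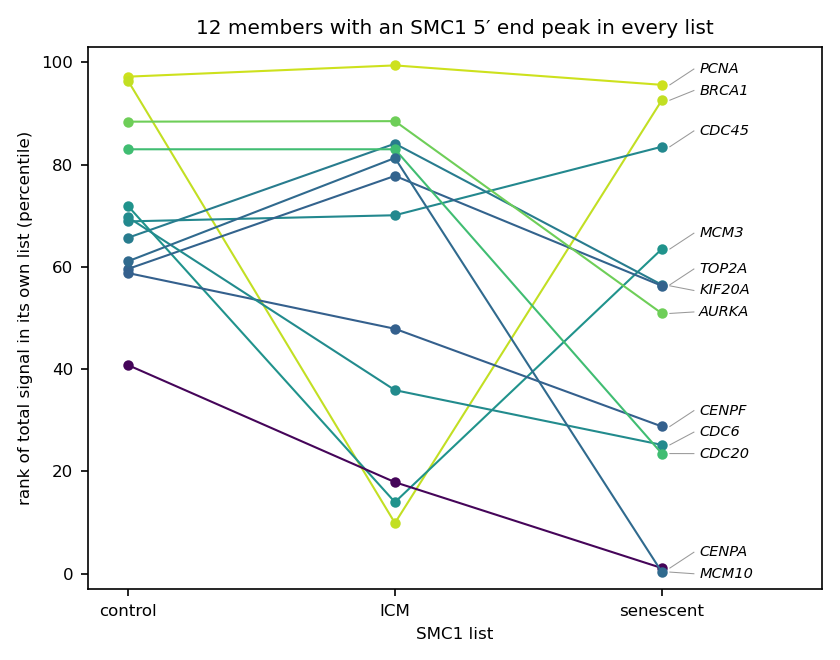
Percentile rank of total signal (y axis) in the 3 SMC1 lists (x axis) for the 12 members listed in all of them, 1 line per gene, coloured by control rank. PCNA stays between the 95.6 and 99.4 percentiles, MCM10 ends at 0.325 and CENPA at 1.11 in senescent cells, and CDC45 alone ends above its control rank.

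CTCF was rare at these promoters. A CTCF peak at the 5′ end was found for 3 members (5.66%) in control, 6 (11.3%) with ICM and 2 (3.77%) in senescent cells. Of the other genes, 10.6%, 15.1% and 11.3% were listed. The members stood below the other genes in all 3 lists, by differences of -4.92, -3.74 and -7.48 points. Further replication and mitosis genes, given below, did not stand below the other genes in any CTCF list. In numbers of genes the gap was small, since the shares of the others would give 5.61, 7.98 and 5.96 of 53. All members with a CTCF peak (3 in control, 6 with ICM and 2 in senescent cells) also had an SMC1 peak at the 5′ end in the same condition. For other genes this held for 84.1%, 77.2% and 69.1% of those with CTCF. With so few members, these shares do not set them apart from the other genes. Read from the side of SMC1, 3 of the 25 members with a control peak (12%) also had CTCF, against 26.8% of such other genes. With ICM it was 6 of 19 (31.6%, against 39.9%) and in senescent cells 2 of 13 (15.4%, against 32.1%).

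MCM10, a factor that helps to activate the helicase, was 1 of the 2 members with CTCF in every list. Its CTCF peak ranked at the 61.5 percentile by total signal in control (chromosome 10, 13161039 to 13162403), 74.3 with ICM and 92.4 in senescent cells, and at 84.4, 91.2 and 97.2 by highest signal (1365, 1856 and 875 bp). The SMC1 peak at the same place ranked at 61.1, 81.3 and 0.325, so in the senescent libraries CTCF was near the top of its list and SMC1 at the edge of its own by total signal, though at the 40.1 percentile by highest signal. The summits of the 2 antibodies were 25, 44 and 2 bp apart in control, ICM-treated and senescent cells. In the promoter sequence above, the letters AGGGGGC begin at -202, counted from the start with the base before it as -1, and the CTCF summits lay at -162, -143 and -162 bp.

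PCNA was the other member with CTCF in every list, at the 77.3 percentile in control (chromosome 20, 5126108 to 5127772), 69 with ICM and 88.6 in senescent cells, and at 88.3, 74.1 and 88.9 by highest signal (1665, 2023 and 1914 bp). Its CTCF and SMC1 summits were at most 6 bp apart. A further pair of peaks inside PCNA, around its other RefSeq start at 5119958, was in all 6 lists, with SMC1 at the 93.8, 95.6 and 98.5 percentiles and CTCF at 61.6, 81.8 and 43.9. TOP2A, which encodes the topoisomerase that untangles chromosomes before mitosis, had CTCF at the 2.79 percentile in control (chromosome 17, 40417163 to 40418680, 1518 bp, 6.24 by highest signal) and 36 in ICM-treated cells (1680 bp, 18 by highest signal). KIF20A, a kinesin of cytokinesis, had CTCF in ICM-treated cells alone (chromosome 5, 138178192 to 138179678, 1487 bp, 26.6 percentile by total and 41.1 by highest signal), as did BRCA1 (chromosome 17, 43169748 to 43172778, 3031 bp, 30.3 and 1.66) and CDC45 (chromosome 22, 19479096 to 19480240, 1145 bp, 4.59 and 23.4). KIF20A, BRCA1 and CDC45 share their windows with the 5′ ends of BRD8, NBR1 and UFD1, while no other 5′ end was annotated within 1 kb of TOP2A or MCM10.

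Peaks overlapping the genes away from the 5′ end were also counted. For SMC1, 7 members (13.2%) had one in control, 7 (13.2%) with ICM and 5 (9.43%) in senescent cells, against 16.7%, 19.9% and 16.4% of the other genes. Median gene length was similar, at 26 kb for members and 24.8 kb for the others, but the longest gene was 303 kb among members and 2473.6 kb among the others. Per Mb of gene the SMC1 values were close, at 4.35, 5.31 and 3.86 such peaks for members and 4.34, 5.69 and 4.04 for the others. A CTCF peak away from the 5′ end was found for 2 members (3.77%) in control, 10 (18.9%) with ICM and 7 (13.2%) in senescent cells. Of the other genes, 8.12%, 11.3% and 14.5% had one, so by this share the members stood above the others with ICM only. Per Mb of gene the CTCF values were 0.966, 4.83 and 3.86 for members and 1.45, 2.13 and 2.9 for the others. The site inside MCM5 was in all 6 lists, about 30.9 kb from the 5′ end (CTCF on chromosome 22 at 35429932 to 35432283 in control), with CTCF at the 46.9, 49.8 and 81.9 percentiles and SMC1 at 70.1, 78 and 79. MCM5 thus kept a listed cohesin site inside the gene in the conditions where its 5′ end was not listed. BUB1B, CDC6, CENPF and POLE had a CTCF peak inside the gene with ICM and in senescent cells and none in control. The CTCF control list was the shortest (4673 peaks, against 6728 with ICM and 8577 in senescent cells). The share of other genes with this pattern is not given here. CDK2, the kinase partner of the E-type cyclins, had a CTCF peak in ICM-treated cells alone (chromosome 12, 55972134 to 55974690, 80.6 percentile) that overlapped the 3′ end of the gene at 55972789, with its summit beyond that end.

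The promoter windows of the members held the motifs of this gene class. An E2F-type site was in 18 of 45 members with a sequence (40%), against 4.44% of all 15842 protein-coding promoters of the same length. The CHR letters were in 13 (28.9%, against 12.2%), a CCAAT box in 31 (68.9%, against 36.4%) and the CTCF core letters in 14 (31.1%, against 23.8%). Since the genes were listed for their function, these shares describe the list and were not tested. An E2F-type site was in 5 of 12 members listed for SMC1 in control and senescent cells, in 3 of 11 listed in control and not in senescent cells, and in 10 of 22 not listed in control. For the CHR letters the numbers were 4 of 12, 4 of 11 and 5 of 22. Of the promoters printed above, CCNB1 and CCNA2 held CCAAT letters but no exact CHR or E2F match, CDC20 held CHR letters at -65 and -178, and PCNA held an E2F-type site at -59.

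Other genes of the same pathways were read from a list of 36 further replication genes and 44 further mitosis genes. Of these 80, 51 (63.7%) had an SMC1 peak at the 5′ end in control, 37 (46.2%) with ICM and 30 (37.5%) in senescent cells. Of the 51 with a control peak, 37 (72.5%) were also in the ICM list and 30 (58.8%) in the senescent list, beside 78.7% and 64.4% of other genes. By list, the replication genes had 16 of 20 (80%) and 11 of 20 (55%), and the mitosis genes 21 of 31 (67.7%) and 19 of 31 (61.3%), so the replication genes were not below the other genes with ICM. Among 31 housekeeping genes the SMC1 lists held 23, 23 and 19, and of the 23 with a control peak 22 (95.7%) were in the ICM list and 18 (78.3%) in the senescent list. For CTCF the housekeeping counts were 5, 11 and 4. CTCF was listed for 11.1% (control), 16.7% (ICM) and 19.4% (senescent) of the 36 replication genes. For the 44 mitosis genes the shares were 15.9%, 20.5% and 15.9%. Other protein-coding genes stood at 10.6%, 15.1% and 11.3%, so the low CTCF shares of the members were not seen in these lists. A CTCF peak at the 5′ end was found in at least 1 list for CDC7, CHAF1A, FEN1, GINS4, LIG1, ORC2, ORC6, PRIM2 and TK1 among the replication genes, and for CDCA2, CDCA3, CDCA8, CENPM, CENPN, CKS1B, ECT2, MAD2L1 and NUSAP1 among the mitosis genes.

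Members that were not listed for SMC1 varied in their distance from the nearest listed peak. In control, 28 members had no peak at the 5′ end, and their nearest SMC1 peak lay at a median of 76.8 kb, with 2 of them within 5 kb and 16 beyond 50 kb. With ICM, 34 members had no such peak, with a median of 39 kb, 2 within 5 kb and 16 beyond 50 kb. In senescent cells this held for 40 members, with a median of 44.1 kb, 1 within 5 kb and 20 beyond 50 kb. These medians are over different sets of members and lists of different length, so they do not measure a change between conditions. Distances for the other unlisted genes are not given here, so the values are not set against a background.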

How the data were processed

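CUT&Tag peaks for CTCF and SMC1 were read from 6 lists, 1 per library. Per the submitters' processing notes and the methods of the study, the authors aligned reads to GRCh38 with Bowtie2 2.3.4.1, calibrated them with E. coli reads, and called peaks with SEACR 1.3 (Picard 2.20.7 and deepTools are also named). The lists are per library in stringent mode at the top 1% of regions. The deposited signal of each peak is its summed coverage and its highest coverage. All values are whole numbers, so no scaling is visible, and the depth of each library is not in the files. The filter for a CTCF motif was not applied here.

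The members and gene lists were chosen with earlier results of these data known. Gene positions were from RefSeq (GRCh38.p14). Strand was from the RefSeq promoter table for 15842 of 19675 protein-coding genes and from GENCODE v44 by symbol and chromosome for 3833, among them 8 members. A peak at the 5′ end overlapped the outermost 5′ end extended by 1 kb on each side. Where several did, that of highest total signal was used. Summits are midpoints of the region of highest signal, and ranks are percentiles within a list. Mitochondrial peaks were left out. Promoter sequences were found for 45 of 53 members, and for ORC1, BRCA2 and AURKB they start at another RefSeq start than the outermost 5′ end. Overlaps and ranks were computed with Python 3.11.15 and pandas 2.3.3, and the overlap step alone was tested on simulated peaks. Members were named by a rule: those with CTCF, and in each class of SMC1 listing the 3 of highest and the 1 of lowest total signal rank. CDC20, CDC6, CENPF, MCM3, MCM5, KIF23, BUB1B, BRCA2, ORC1, POLE and CDK2 are described outside this rule and were chosen after their values were seen.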

Additional observations from a re-analysis of the deposited data

Results flagged for a closer look

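The share of members with a peak at the 5′ end moved in opposite directions for the 2 antibodies between control and ICM-treated cells. It differed by -11.4 percentage points for SMC1 (25 of 53 to 19 of 53) and by 5.64 points for CTCF (3 of 53 to 6 of 53). The other protein-coding genes went the same ways, from 33.2% to 29.1% for SMC1 and from 10.6% to 15.1% for CTCF. With 1 library per group, whether CTCF and SMC1 differ here was not tested. The CTCF list was longer in ICM-treated cells (6728 against 4673 peaks), as was the SMC1 list (17809 against 14883), and the CTCF libraries carry p numbers of 21 for control and 16 for ICM, so the p number and the treatment cannot be told apart for CTCF. With CTCF lists of equal length by total signal, 5.66% of members were listed both in control and in ICM-treated cells.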

How the results depend on the processing

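No paired analysis was possible because each group holds 1 library. The difference between members and other protein-coding genes, in percentage points, was recomputed for 8 comparisons under 10 alternatives. Counting every RefSeq start was chosen after the annotation was seen. Of the 80 values, 71 kept their sign and lay within the exact (Clopper-Pearson) 95% interval of the members' share, which covers counting only. That interval is wide (0.141 to 28.2 points for SMC1 in control) and the alternatives reuse the same genes, so lying within it says little. Cutting to equal length leaves the shortest list whole, so the values for SMC1 in senescent cells (0.326) and CTCF in control (-4.92) could not change there. Among the 71 values, the SMC1 excess in control was 5.71 with peaks above the median total signal and 9.14 at equal length by highest signal. With CpG-rich promoters as the other genes, the SMC1 differences were -0.72 in control (14 in the report's setting), -6.39 with ICM (6.72) and -9.61 in senescent cells (0.326), and the CTCF difference in senescent cells was -11.3 (-7.48). That setting limited the other genes only and kept all 53 members. With peaks above the median total signal of each list, the SMC1 differences were -3.35 (ICM) and -1.66 (senescent). The SMC1 difference in senescent cells was also -1.21 with 2 kb windows and -0.498 without shared promoters. Among genes with a control peak, the difference for ICM was 3.54 with lists of equal length by highest signal (-10.7), -21.6 at equal length by total signal and -25.9 with peaks above the median total signal. Apart from the CpG-rich setting, where its construction changes the genes compared, the cause of these shifts was not tested. The list threshold, the depth, which the files do not give, and 1 library per group limit all values.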
